A study of Mus musculus with 2 samples.

Results

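The insulin-like growth factor (IGF) receptor axis and its binding proteins were followed here through 10 genes, picked by symbol: the ligand gene Igf1, the receptor gene Igf1r, the adaptor genes Irs1 and Irs2, and the binding protein genes Igfbp2, Igfbp3, Igfbp4, Igfbp5, Igfbp6 and Igfbp7. All 10 were among the 24369 gene rows of the table. The cells were type II pneumocytes (alveolar type 2 cells, which make pulmonary surfactant) sorted from lungs of C57BL6 mice of genotype WT, with no treatment named. There were 2 libraries, 1 from postnatal day 28 (P28) and 1 from postnatal day 7 (P07), each giving 1 RPKM value per gene (reads per kilobase of gene, divided by library depth). The sources used here do not give the number of animals behind each library or the surface markers used for the sort.

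IGF1 and IGF2 are secreted growth factors that signal through the tyrosine kinase IGF1R. The activated receptor phosphorylates the adaptors IRS1 and IRS2, which recruit PI3 kinase and so start the AKT, mTOR and FOXO branch, while SHC and GRB2 lead to RAS and ERK. The secreted binding proteins hold most IGF outside the cell and can either keep it from the receptor or deliver it, and in the lung much of the ligand comes from mesenchymal cells rather than from the epithelium. IGF signalling is known to promote growth and differentiation of the distal lung around birth.

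Each age has 1 library, so differences have no replicate check and no test, and "higher" or "lower" speaks of these libraries alone. The spacing of the lowest values put reads behind the RPKM values at about 24600000 for P28 and 17600000 for P07. Each interval is a 95% exact counting interval, which covers counting error only. Among the cell markers listed, the type 2 cell gene Sftpc (surfactant protein C) was highest in both libraries, at 24085 RPKM at P28 and 13343 RPKM at P07. The club cell gene Scgb1a1 came next, above every other type 2 marker, with 18104 RPKM at P28 and 6764 RPKM at P07. Xist had 0.245 RPKM at P28 and 52.7 at P07, while 4 Y-linked genes had 2.16 to 7.19 RPKM at P28 and were listed at 0 at P07, so that age and the sex of the animals cannot be told apart in any difference below.

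On the scale of log2(RPKM + 1), 1 of the 8 members that reached 1 RPKM in at least 1 library was at least 2-fold lower at P28, and none was at least 2-fold higher. That gene was Igfbp2, at 6.07 RPKM at P28 and 22.3 RPKM at P07. The share of all 9653 genes at 1 RPKM or more that lay at least 2-fold apart was 3.14%, with 1.96% lower and 1.18% higher at P28, so that a share of 1 in 8 rests on a single gene. The other 7 members lay within 2-fold. The members that reached 1 RPKM had a median log2 ratio of -0.50, beside -0.08 for all genes. In 6 of these 8 members the log2 ratio was below the median of all genes, and the exceptions were Irs2 and Igfbp6. Igfbp4 reached 1 RPKM at P07 only, so its difference helped it into these counts. Igf1 and Igfbp3 stayed under 1 RPKM in both libraries and entered no count of members at least 2-fold apart.

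**Figure D1:**
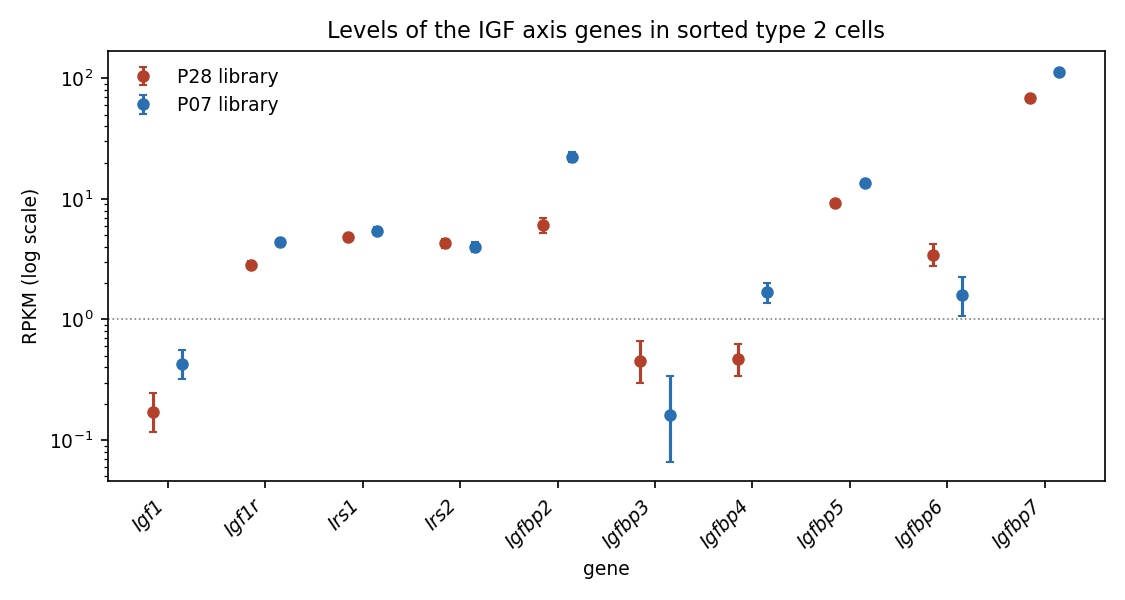
RPKM of the 10 genes (log axis) in the P28 library (red, left of each pair) and the P07 library (blue), with 95% exact Poisson counting intervals; the dotted line marks 1 RPKM. Igfbp7 leads at 69.0 RPKM at P28 and 112 RPKM at P07, and Igf1 and Igfbp3 lie below 1 RPKM.

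The ligand gene Igf1 was barely detected in the sorted cells. Igf1 (chromosome 10, 87858265 to 87937042 in GRCm38, plus strand, protein coding) had 0.172 RPKM at P28 (about 30 reads, interval 0.117 to 0.247) and 0.429 RPKM at P07 (about 53 reads, 0.320 to 0.559). It was therefore lower at P28, with counting intervals that did not overlap, at a ratio of 0.401 (0.250 to 0.646). This interval depends on which of its many transcript lengths applies and held 1 with the shortest. Igf2, the other ligand gene, which is imprinted and is no member of the list, had 0.490 RPKM at P28 and 2.25 RPKM at P07, 4.60-fold lower (3.39 to 6.28). Per kilobase Igf2 stood above Igf1 in both libraries, by 2.85 times at P28 and 5.25 times at P07. In bulk RNA, fewer cells of a type and less RNA per cell cannot be told apart, which applies to every low value here.

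The receptor gene Igf1r was measured at moderate levels and was lower at P28. Igf1r (chromosome 7, 67952827 to 68233668, plus strand) had 2.84 RPKM at P28 (2.65 to 3.05) and 4.36 RPKM at P07 (4.07 to 4.65), a ratio of 0.653 (0.592 to 0.719). Its log2 ratio of -0.48 was lower than that of most genes, at percentile 11.5 of all genes at 1 RPKM or more. The insulin receptor gene Insr, whose protein can pair with IGF1R into hybrid receptors, had 7.55 RPKM at P28 and 6.85 RPKM at P07, with a log2 ratio of 0.12 as deposited and -0.22 when both libraries were given the same total. Igf2r, which codes for the receptor that carries IGF2 to the lysosome, had 6.39 RPKM at P28 and 6.26 RPKM at P07, with a log2 ratio of 0.03 as deposited and -0.31 with equal totals. Set against Insr within the same library, a comparison that no scaling can move, Igf1r stood at 0.377 of the Insr level at P28 and 0.636 at P07. The first of these was 0.592 times the second (0.523 to 0.670). The ratio of Igf1r to Igf2r was likewise lower, at 0.445 at P28 and 0.696 at P07.

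The adaptor genes Irs1 and Irs2 were close to level between the ages. Irs1 (chromosome 1, 82233101 to 82291416, minus strand) had 4.84 RPKM at P28 (4.55 to 5.13) and 5.46 RPKM at P07 (5.10 to 5.83), a ratio of 0.886 (0.809 to 0.969). Irs2 (chromosome 8, 10984681 to 11008458, minus strand) had 4.27 RPKM at P28 (3.95 to 4.61) and 3.99 RPKM at P07 (3.63 to 4.38), and its ratio of 1.07 had an interval that held 1 (0.947 to 1.21). The direction for Irs2 followed the scaling, since its log2 ratio of 0.08 became -0.24 with equal totals, where the interval of the plain ratio lay below 1 (0.720 to 0.919). The balance of the adaptors, which needs no scaling, was 1.13 parts Irs1 to 1 part Irs2 at P28 and 1.37 to 1 at P07, and the first was 0.829 times the second (0.711 to 0.965).

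The promoters of the adaptor pair are shown because these genes lay closest to a ratio of 1 and their sequences hold the same palindrome. Each run gives the 250 bases before the RefSeq start site (build GRCm38.p6), 5′ to 3′ on the strand of the gene. For several members, Irs2 and Igf1r among them, this site lies upstream of the gene limits given from GENCODE. Here and below, capitals mark every match, on either strand, to the E-box CACGTG (bound by helix-loop-helix factors), the TATA box TATAAA, the GC box GGGCGG, the CCAAT box CCAAT and the FOXO motif GTAAACA.
Irs2, chr8:11008930-11009179, minus strand: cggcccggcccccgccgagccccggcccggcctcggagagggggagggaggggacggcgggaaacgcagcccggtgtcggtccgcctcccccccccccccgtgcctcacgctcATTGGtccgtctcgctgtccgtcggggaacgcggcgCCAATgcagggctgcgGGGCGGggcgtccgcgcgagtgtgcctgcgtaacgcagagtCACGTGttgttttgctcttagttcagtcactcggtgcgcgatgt
Irs1, chr1:82291440-82291689, minus strand: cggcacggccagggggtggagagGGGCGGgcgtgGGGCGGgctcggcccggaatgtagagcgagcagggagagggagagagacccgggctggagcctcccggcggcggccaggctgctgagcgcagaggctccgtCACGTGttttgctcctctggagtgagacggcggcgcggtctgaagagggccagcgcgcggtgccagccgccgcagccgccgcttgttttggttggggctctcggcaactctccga

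The E-box lay 44 bases before the start site in Irs2 and 115 bases before it in Irs1. It sat inside a run of 10 bases, gtcacgtgtt, that both promoters share and that 0.07% of all 32851 RefSeq promoter windows hold. A second shared run of 10 bases, tgttttgctc, overlapped it by 1 base in Irs2 and by 4 bases in Irs1, and was in 0.0639% of all windows. Both runs came from a search of these promoters for their longest shared stretch. Any given run of 10 bases is rare by its length alone, so these shares do not mark the runs as unusual. The E-box alone was in 6.02% of all windows and in 3 of the 11 windows of the 10 members, which besides the adaptors was the first of 2 windows of Igfbp2. No window of a member held the FOXO motif, which 3.17% of all windows hold. These matches describe letters and show no binding.

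The binding protein genes spanned the widest range of levels and differed in both directions. Igfbp2, Igfbp4, Igfbp5 and Igfbp7 had ratios whose counting intervals lay wholly below 1, and Igfbp3 and Igfbp6 had intervals wholly above 1. At these read numbers small differences can clear 1 too, as for Insr at a ratio of 1.10 (1.02 to 1.19). The share of all genes with such intervals was not counted. The summed RPKM of the binding protein genes was 88.6 at P28 and 151 at P07, or 0.0619% of all RPKM at P28 and 0.139% at P07. Igfbp1, the liver-type binding protein gene that neighbours Igfbp3 at a distance of 3.54 kilobases on chromosome 11, was listed at 0 in both libraries. A count of 0 allows up to 0.0801 RPKM for it at P28 and 0.112 RPKM at P07.

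**Figure D2:**
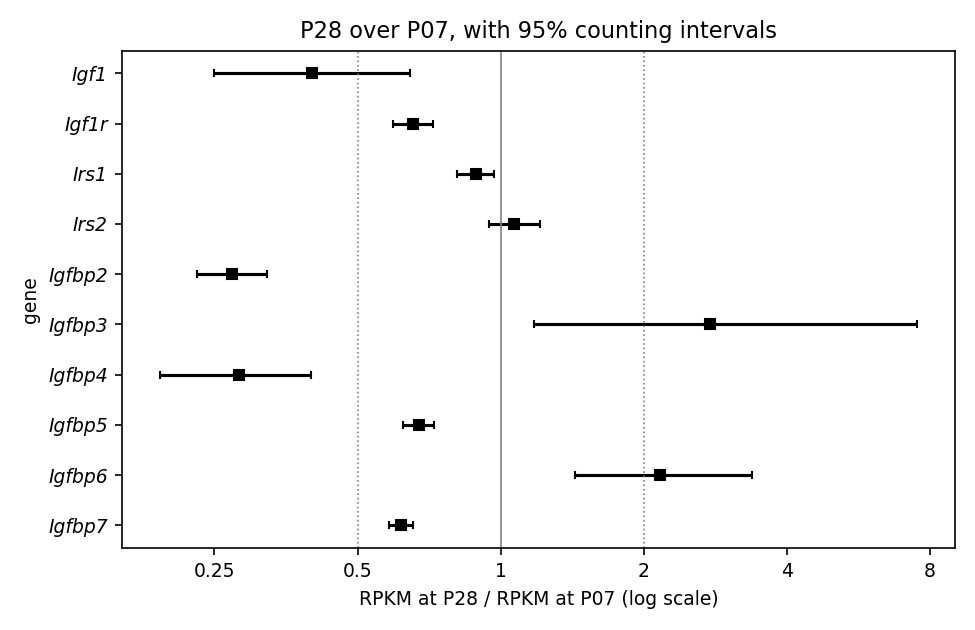
RPKM at P28 over RPKM at P07 for each of the 10 genes (log axis), with 95% exact counting intervals; the solid line marks a ratio of 1 and the dotted lines 2-fold. Igfbp2 and Igfbp4 lie at 0.272 and 0.282, Igfbp6 and Igfbp3 at 2.17 and 2.76, and only the interval of Irs2 holds 1. The share of all genes with intervals clear of 1 was not counted.

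Igfbp7 was the most abundant member at both ages. It codes for a secreted, low-affinity IGF binder that also binds insulin and is deposited in vessel walls and basement membrane. Igfbp7 (chromosome 5, 77349240 to 77408041, minus strand) had 69.0 RPKM at P28 (66.0 to 72.0) and 112 RPKM at P07 (107 to 116), rank 170 among all rows at P28 and rank 83 at P07. It was 1.62-fold lower at P28 (1.53 to 1.72), a log2 ratio of -0.69 that fell short of 2-fold as deposited and passed it with equal totals, at -1.08. Igfbp7 supplied 77.9% of the summed binding protein RPKM at P28 and 73.9% at P07.

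Igfbp2 and Igfbp5 are neighbours that face each other tail to tail on chromosome 1, with 5.46 kilobases between them, and both were lower at P28 to different degrees. Igfbp2 codes for a binding protein with a higher affinity for IGF2 than for IGF1 and is known as a marker of mature type 1 alveolar cells in mouse lung. It (72824503 to 72852474, plus strand) had 6.07 RPKM at P28 (5.25 to 6.99) and 22.3 RPKM at P07 (20.4 to 24.3), 3.67-fold lower (3.10 to 4.35). On the log2 scale its ratio of -1.72 was at percentile 0.321 of all genes at 1 RPKM or more. Igfbp5, whose product binds extracellular matrix, lies at 72857932 to 72874884 on the minus strand. It had 9.18 RPKM at P28 (8.70 to 9.68) and 13.7 RPKM at P07 (13.0 to 14.4), 1.49-fold lower (1.38 to 1.60). The order of these neighbours turned over, with Igfbp2 at 0.661 of the Igfbp5 level at P28 and 1.63 times the Igfbp5 level at P07. This change in their balance, 2.47-fold (2.05 to 2.97), does not depend on the scaling of the libraries.

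The promoter of Igfbp2, the only member at least 2-fold apart on the log2(RPKM + 1) scale, is shown at its first start site, with the promoters of Igfbp4, which was lower by a like plain ratio, and of Igfbp6, which was higher.
Igfbp2, chr1:72824230-72824479, plus strand: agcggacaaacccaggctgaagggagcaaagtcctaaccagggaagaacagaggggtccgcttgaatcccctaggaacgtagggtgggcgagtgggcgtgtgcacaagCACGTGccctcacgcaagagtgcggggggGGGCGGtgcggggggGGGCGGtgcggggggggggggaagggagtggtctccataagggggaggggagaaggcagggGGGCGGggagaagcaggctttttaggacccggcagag
Igfbp4, chr11:99040994-99041243, plus strand: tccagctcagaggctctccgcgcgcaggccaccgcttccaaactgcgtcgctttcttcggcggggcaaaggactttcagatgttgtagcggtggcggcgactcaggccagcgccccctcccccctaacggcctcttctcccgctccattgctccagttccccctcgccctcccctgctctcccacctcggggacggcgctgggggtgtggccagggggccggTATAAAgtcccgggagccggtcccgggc
Igfbp6, chr15:102143936-102144185, plus strand: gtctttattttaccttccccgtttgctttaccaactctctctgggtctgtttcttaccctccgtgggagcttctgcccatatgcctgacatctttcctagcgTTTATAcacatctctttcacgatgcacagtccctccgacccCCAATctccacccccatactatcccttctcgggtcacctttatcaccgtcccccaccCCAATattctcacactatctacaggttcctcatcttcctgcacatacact

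Igfbp2 had 3 GC boxes, 37, 98 and 113 bases before its start site, and an E-box 142 bases before it. Igfbp4 had a TATA box 28 bases before its start site and none of the other motifs. Igfbp6 had a TATA box match on the opposite strand 148 bases before the start site and CCAAT boxes 50 and 107 bases before it. GC boxes were in 32.7% of all windows, CCAAT boxes in 33.8% and TATA boxes in 12.4%. The window of Igfbp2 was 67.2% G and C, that of Igfbp4 69.2% and that of Igfbp6 49.6%, beside a median of 52.4% over all windows. Igfbp2 and Igfbp4, both lower at P28, shared none of these motifs in these windows.

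Igfbp4, an inhibitory binding protein gene whose product is cleaved by the protease PAPP-A, was low at both ages. It (chromosome 11, 99041244 to 99054392, plus strand) had 0.472 RPKM at P28 (0.340 to 0.628) and 1.68 RPKM at P07 (1.38 to 2.02), 3.55-fold lower as a plain ratio (2.51 to 5.20). The pseudocount of 1 reduced this to a log2 ratio of -0.86, so that the gene was not counted among those 2-fold apart. With a pseudocount of 0.1 its log2 ratio was -1.63. Pappa, the gene of that protease, had 0.0516 RPKM at P28 (about 14 reads) and 0.294 RPKM at P07 (about 57 reads), and it was named after its values were seen.

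Igfbp6 and Igfbp3 were the members higher at P28. Igfbp6 codes for a binding protein that prefers IGF2. It (chromosome 15, 102144362 to 102149511, plus strand) had 3.44 RPKM at P28 (2.78 to 4.21, about 94 reads) and 1.59 RPKM at P07 (1.08 to 2.25, about 31 reads), a ratio of 2.17 (1.43 to 3.37). Its log2 ratio of 0.78 was at percentile 97.7 of all genes, and with equal totals the plain ratio was 1.65 (1.09 to 2.56). Igfbp3 codes for the main carrier of IGF in blood. It (chromosome 11, 7206086 to 7213923, minus strand) had 0.450 RPKM at P28 (about 27 reads) and 0.163 RPKM at P07 (about 7 reads), a ratio of 2.76 with a wide interval (1.17 to 7.51). With equal totals the interval of Igfbp3 held 1 (0.892 to 5.71).

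Within the binding protein pool, the shares differed between the ages in ways that no scaling of the libraries can move. Igfbp2 made up 6.85% of the pool at P28 and 14.8% at P07. Igfbp6 made up 3.88% at P28 and 1.05% at P07, while Igfbp5 had 10.4% at P28 and 9.04% at P07. Igfbp4 made up 0.533% at P28 and 1.11% at P07, and Igfbp3 0.508% at P28 and 0.108% at P07. Measured against Igfbp7 in the same library, Igfbp2 at P28 was 0.441 times its P07 ratio (0.369 to 0.528) and Igfbp4 0.456 times (0.310 to 0.649). Igfbp6 was 3.51 times its P07 ratio (2.31 to 5.49) and Igfbp3 4.47 times (1.90 to 12.2). For Igfbp5 the same value was 1.09, with an interval that held 1 (0.989 to 1.20).

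The order of the 10 genes by level per kilobase was Igfbp7, Igfbp5, Igfbp2, Irs1, Irs2, Igfbp6, Igf1r, Igfbp4, Igfbp3 and Igf1 at P28. At P07 it was Igfbp7, Igfbp2, Igfbp5, Irs1, Igf1r, Irs2, Igfbp4, Igfbp6, Igf1 and Igfbp3. At P28 the counting intervals of neighbours overlapped for Irs1 and Irs2, for Irs2 and Igfbp6, for Igfbp6 and Igf1r, and for Igfbp4 and Igfbp3. At P07 they overlapped for Igf1r and Irs2, for Igfbp4 and Igfbp6, and for Igf1 and Igfbp3. All other neighbours were apart beyond counting error.

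**Figure D3:**
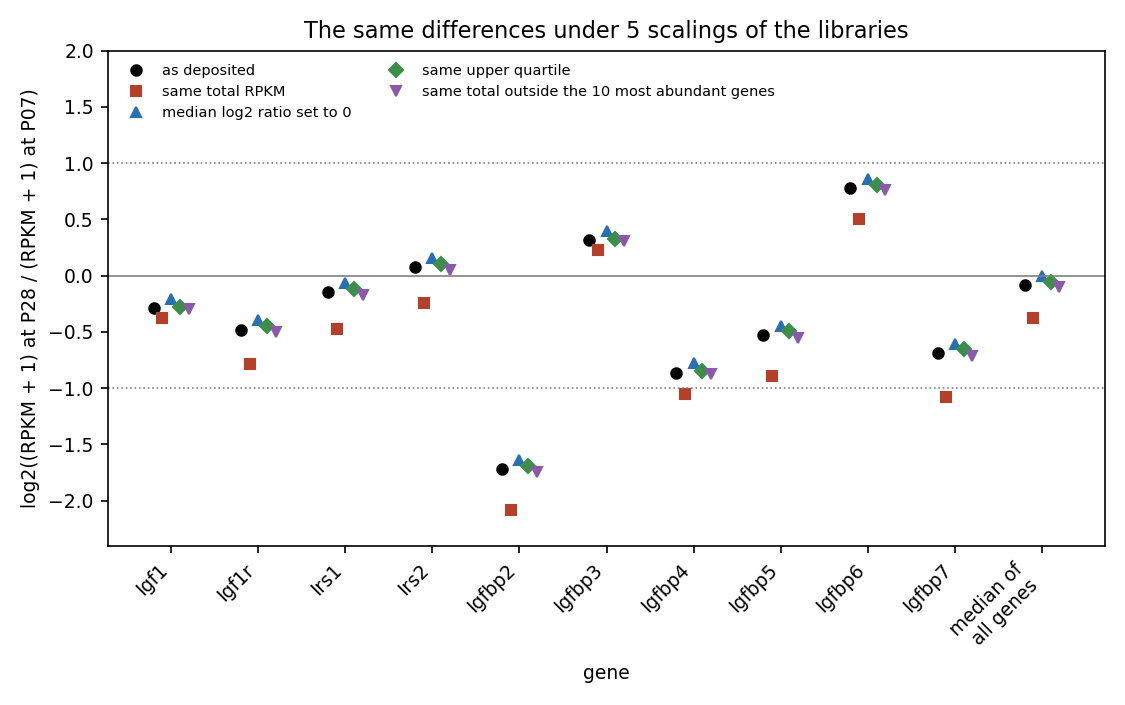
Log2 ratio of RPKM + 1, P28 over P07, for each gene under 5 scalings of the libraries, with the median of all genes at 1 RPKM or more at the right; dotted lines mark 2-fold. Igfbp2 lies between -2.08 and -1.64 under every scaling shown, Irs2 crosses 0, and the equal totals (red squares) lower every point.

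On the log2(RPKM + 1) scale, the scaling of the libraries moved the members by different amounts. The total RPKM was 143071 at P28 and 108758 at P07, and the 10 most abundant genes held 44.0% of it at P28 and 27.9% at P07. Equal totals shifted the median of all genes by -0.29 on the log2 scale, to -0.37 in place of -0.08. As deposited, 114 genes were 2-fold higher and 189 lower, and with equal totals 65 were higher and 443 lower. Relative to the median of all genes, Igfbp2 lay between -1.70 and -1.63 under the 5 scalings, Igfbp7 between -0.70 and -0.60, Igf1r between -0.41 and -0.39, and Igfbp6 between 0.86 and 0.88. The low genes moved least with equal totals, Igf1 and Igfbp3 by -0.09 each beside -0.39 for Igfbp7. This comes from the pseudocount, since equal totals change the plain ratio of every gene by the same factor. Relative to the median of all genes Igf1 therefore ranged between -0.22 and -0.00060, and Igfbp3 between 0.38 and 0.61. With equal totals 3 members were at least 2-fold lower, namely Igfbp2, Igfbp7 and Igfbp4. Of the 10 members, Irs2 alone changed sign under any of the 5.

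**Figure D4:**
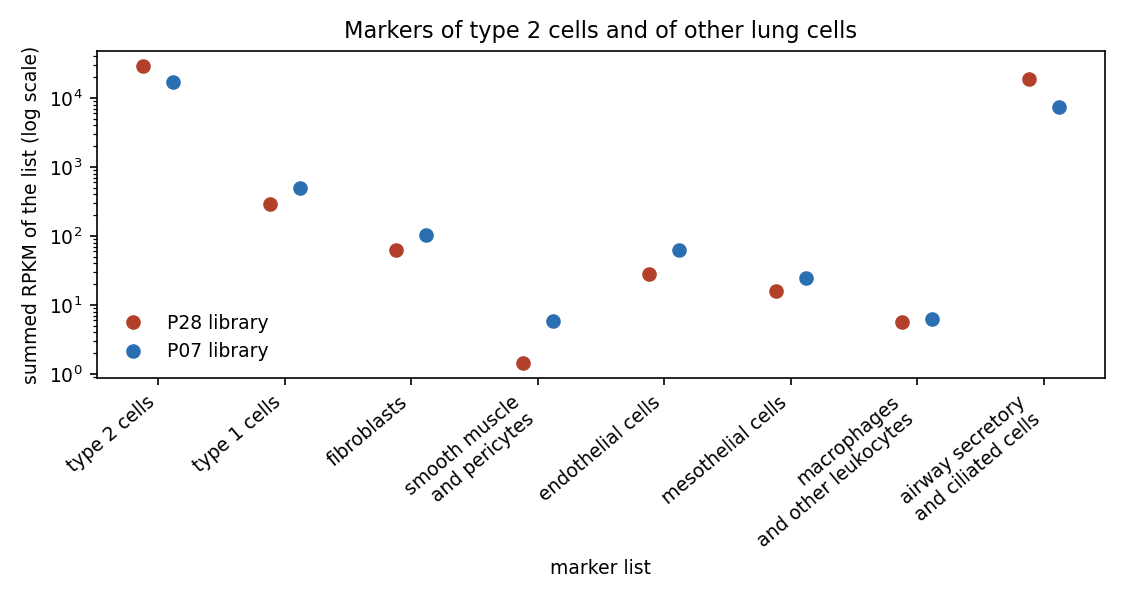
Summed RPKM (log axis) of 8 marker lists in the P28 library (red, left of each pair) and the P07 library (blue). The sums of the type 2 and airway lists are higher at P28, and most of each sum is a single gene, Sftpc and Scgb1a1. Of 10 type 2 markers 8 are higher and 2 lower at P28, and of 10 airway markers 9 are higher and 1 lower. With equal totals the median log2 ratio of the type 2 list is -0.04, beside -0.37 for all genes. The sums of the type 1, fibroblast, smooth muscle, endothelial and mesothelial lists are lower at P28.

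Markers of several other lung cell types were lower at P28, as most members were. Direction counts here and below are to be read beside the median log2 ratio of all genes, -0.08 as deposited and -0.37 with equal totals. The share of all genes lower at P28 was not counted. All 12 type 1 cell markers were detected in both libraries, with summed levels of 291 RPKM at P28 and 493 RPKM at P07, a ratio of 0.591, and 11 of the 12 were lower at P28. Of these, Ager had 89.1 RPKM at P28 and 119 at P07, and Emp2 had 42.3 RPKM at P28 and 72.5 at P07. Akap5, named after its values were seen, had the lowest ratio of the 12 type 1 markers, 0.275 (21.7 RPKM at P28 and 78.9 at P07). The other 11 had ratios of 0.456 to 1.03. At the other end Aqp5 had 19.0 RPKM at P28 and 18.5 at P07. Type 1 cells are a known source of Igfbp2, and their part in its result was not tested. The 14 endothelial markers summed to 28.5 RPKM at P28 and 61.6 at P07, a ratio of 0.463, and 13 of them were lower at P28. Calcrl, an endothelial receptor gene, had 5.68 RPKM at P28 and 12.4 at P07. Esam, an endothelial adhesion gene and the exception, had 10.2 RPKM at P28 and 9.68 at P07. The 12 markers of smooth muscle and pericytes summed to 1.43 RPKM at P28 and 5.92 at P07, with 3 listed at 0 at P28 and 1 at P07. Endothelial and mural cells are known sources of Igfbp7 and Igfbp5, and their part in those results was not tested.

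Fibroblast and mesothelial markers were mixed in the same libraries. The 16 fibroblast markers summed to 63.5 RPKM at P28 and 103 RPKM at P07, a ratio of 0.616, with none listed at 0 at P28 and 2 at P07, and 10 were lower and 6 higher at P28. Npnt, which alveolar epithelium also expresses, and Mfap4 led this list at both ages. Among fibroblast markers named after their values were seen, the matrix genes Fbln5 (2.08 RPKM at P28 and 10.6 at P07), Eln (3.77 RPKM at P28 and 10.2 at P07) and Col1a1 (1.19 RPKM at P28 and 2.78 at P07) were lower. Dcn (1.35 RPKM at P28 and 0.490 at P07) and Pdgfra (0.730 RPKM at P28 and 0.152 at P07) were higher. The 8 mesothelial markers summed to 15.7 RPKM at P28 and 24.8 at P07, led by Krt19, which epithelia express too, with 10.4 RPKM at P28 and 16.5 at P07. Of the 8, 5 were lower and 3 higher at P28. Msln had 1.19 RPKM at P28 and 5.24 at P07, while Upk3b, named after its values were seen, had 2.04 RPKM at P28 and 1.23 at P07. Fibroblasts and mesothelium are known sources of Igf1, Igfbp4 and Igfbp6, and their part in these results was not tested. Of 14 leukocyte markers, 8 were listed at 0 at P28 and 6 at P07, among them Marco, C1qa and Adgre1 in both libraries. The most abundant were detected at both ages, Cd79b with 3.02 RPKM at P28 and 2.84 at P07 and Csf1r with 1.49 RPKM at P28 and 2.23 at P07.

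**Figure D5:**
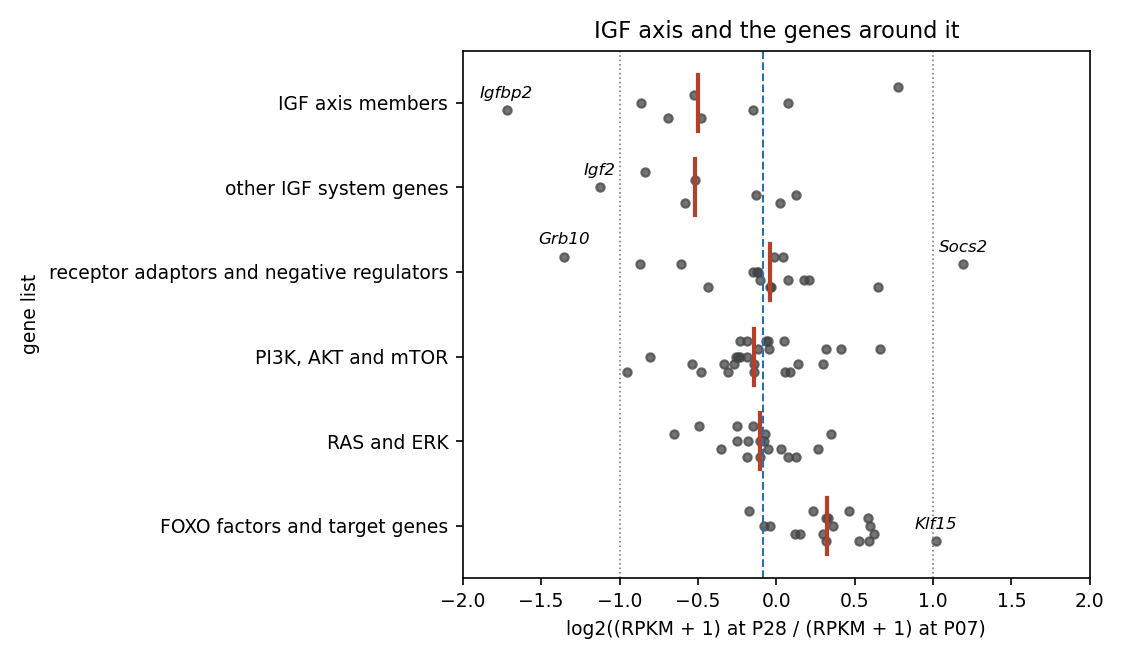
Log2 ratio of RPKM + 1, P28 over P07, of each gene at 1 RPKM or more, for the members and 5 lists around them; red bars are list medians, the dashed line the median of all genes (-0.08) and the dotted lines 2-fold. Igfbp2, Igf2 and Grb10 lie beyond 2-fold on the lower side, and Socs2 and Klf15 on the higher side.

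Around the members, a small share of the wider pathway was 2-fold apart, as of all genes. Of 110 listed genes around the members, 87 reached 1 RPKM, and of these 2 were at least 2-fold higher at P28, 2 were at least 2-fold lower and the other 83 lay within 2-fold. The share apart was 4.60%, beside 3.14% of all genes. Their median log2 ratio was -0.06. The 4 genes apart were Socs2 and Klf15 on the higher side and Grb10 and Igf2 on the lower side. With equal totals none was higher and 6 were lower. Of all 9653 genes at 1 RPKM or more, 65 were higher and 443 lower under that scaling.

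In the rest of the IGF system, 7 of 18 genes reached 1 RPKM, 1 of them (Igf2) was at least 2-fold lower, none was higher, and the median log2 ratio was -0.52. Igf2 and Igf2bp3 reached 1 RPKM at P07 only, so they had to be lower at P28, and the median of the other 5, taken after seeing the data, was -0.13. Ghr, the growth hormone receptor gene, had 3.76 RPKM at P28 and 6.15 RPKM at P07, a ratio of 0.612 (0.533 to 0.703). Igf2bp3, which codes for a fetal RNA-binding protein that binds Igf2 messenger RNA and was named after its values were seen, had 0.393 RPKM at P28 and 1.49 RPKM at P07.

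Among 17 measured receptor adaptors and negative regulators, 1 was at least 2-fold higher and 1 lower at P28, with a median log2 ratio of -0.04. Of the 17, 1 reached 1 RPKM at P28 only, so it had to be higher there, and the median of the other 16 was -0.07. Socs2, a feedback inhibitor of growth hormone signalling, had 35.3 RPKM at P28 and 14.9 RPKM at P07, a ratio of 2.37 (2.16 to 2.61), and a log2 ratio of 0.81 with equal totals. Grb10, an imprinted inhibitor of the insulin and IGF1 receptors, had 3.83 RPKM at P28 and 11.4 RPKM at P07, 2.97-fold lower (2.66 to 3.32). Its relative Grb14, which also inhibits the insulin receptor, went the other way, with 19.2 RPKM at P28 and 11.9 RPKM at P07, a ratio of 1.62 (1.44 to 1.82), and a log2 ratio of 0.28 with equal totals. Nedd4, a ubiquitin ligase that works with GRB10 on IGF1R, had 42.6 RPKM at P28 and 78.8 RPKM at P07, a log2 ratio of -0.87.

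Among downstream signalling genes, none of 27 measured genes of PI3K, AKT and mTOR signalling and none of 18 genes of RAS and ERK signalling was 2-fold apart, near the background of 3.14% of all genes. The median log2 ratios were -0.15 for the PI3K list and -0.10 for the ERK list, beside -0.08 for all genes. In each list 2 genes reached 1 RPKM at P07 only, so they had to be lower at P28. The medians of the others were -0.14 for the PI3K list and -0.09 for the ERK list. In the PI3K branch the largest absolute log2 ratios among genes that reached 5 RPKM were those of Deptor, an mTOR inhibitor (8.91 RPKM at P28 and 5.27 at P07), and Eif4ebp2, a translation repressor (8.92 RPKM at P28 and 13.4 at P07). Akt1 followed with 3.85 RPKM at P28 and 5.78 at P07, and Pik3ca, the catalytic PI3 kinase subunit gene, with 8.05 RPKM at P28 and 5.81 at P07. In the ERK branch Rps6ka3 had 13.9 RPKM at P28 and 16.7 at P07, and Rasa1 had 5.14 RPKM at P28 and 5.96 at P07. Spry2, a feedback inhibitor of receptor kinases, had 19.6 RPKM at P28 and 16.1 at P07, with a log2 ratio of 0.27 as deposited and -0.11 with equal totals.

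FOXO factors and the genes listed as their targets, which AKT represses through FOXO, were mostly above the median of all genes. Of 18 measured genes 1 was at least 2-fold higher at P28 and none was lower, the median log2 ratio was 0.32, and 1 gene lay below the median of all genes. Of the 18, 1 reached 1 RPKM at P28 only, so it had to be higher there, and the median of the other 17 was 0.33. With equal totals no gene of the list was 2-fold apart, and its median was 0.02 beside -0.37 for all genes. Foxo3 had 18.1 RPKM at P28 and 11.6 RPKM at P07, a ratio of 1.55 (1.41 to 1.72). Bnip3, a mitophagy gene, had 14.1 RPKM at P28 and 8.83 at P07, Cited2, a transcriptional coregulator gene, 22.3 RPKM at P28 and 14.4 at P07, and Bcl6, a repressor gene, 10.1 RPKM at P28 and 6.71 at P07. Klf15, the gene past 2-fold, had 3.53 RPKM at P28 and 1.24 RPKM at P07, a ratio of 2.85 (2.08 to 3.92). Irs2, itself a known FOXO target, was close to level.

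By distance between the log2(RPKM + 1) values of the 2 libraries, the genes closest to Igfbp2 were Lama3 (distance 0.167, with 6.07 RPKM at P28 and 19.8 at P07), Mt2 (0.199) and Lamc1 (0.223). Lama3 and Lamc1 code for laminin chains and Mt2 for a metallothionein. Within a distance of 0.2 of Igfbp2 there were 2 genes. For Igf1r the closest were Trp53i11 (0.0158), Tmem254c (0.025) and Epm2aip1 (0.0508), with 213 genes within 0.2. Genes with Gm-numbered, Rik and similar names were left out of those named as closest. With 1 library per age these distances rest on 2 values per gene and describe level and ratio only.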

How the data were processed

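Total RNA of sorted type II pneumocytes was reverse transcribed, made into Nextera XT libraries and sequenced as paired reads, per the labels' protocols. TopHat, TopHat2 2.0.9 and the builds GRCm38 and mm10 are listed in the submitters' processing notes without a role. The authors deposited RPKM values, 1 column per library, per the file headers. The sources used here do not name the counting program, annotation or filters. Nothing states that counting used strand, and reads shared by overlapping genes may be split. Both columns matched the title of 1 sample, and 0 columns were left unused.

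The P28 library was compared with the P07 library, 1 sample each, so no test was run. The log2 ratio of RPKM + 1 was taken for genes whose higher value was at least 1 RPKM and called at 2-fold. This pseudocount understates differences of low genes, while folds with intervals are plain RPKM ratios. Read numbers were recovered from the spacing of low values (RPKM times length). With the single RefSeq-paired length of a gene, 57.0% of 2732 low genes at P28 and 58.1% of 2876 at P07 came out within 0.05 of a whole read, where chance gives 10%. The planned mean of the GENCODE (release M21) transcript lengths gave 11.5% and 12.0% in genes with several lengths, so the longest RefSeq-paired transcript was used instead. For genes with several RefSeq lengths (Igf1, Igfbp2, Igfbp7) the longest gave 29.9% and 29.8%, so their read numbers and intervals are approximate. Intervals (Clopper-Pearson for ratios, Poisson for levels, conditional odds ratio for balances within a library, each 95%) and floors of 3 reads cover counting error only, since reads copied by PCR and carrying no molecular identifier need not be separate molecules.

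Promoters are RefSeq's (GRCm38.p6), found by symbol for all 10 members in 11 windows, and gene positions are GENCODE's on GRCm38. Protein sequences were not used here. Named genes were the members, Igf2, Igf2r, from each pathway list up to 4 genes that reached 5 RPKM and had the largest absolute log2 ratio, up to 2 leading genes of each marker list, and the 3 genes closest to Igf1r and to Igfbp2. Gm-numbered, Rik and similar names were left out of the closest genes by this rule. A gene that this rule names is not reported here. Genes outside this rule (Igfbp1, Pappa, Igf2bp3, Klf15, Akap5, Aqp5, Fbln5, Eln, Col1a1, Dcn, Pdgfra, Upk3b, Marco, C1qa, Adgre1 and Xist) were named after their values were seen. Members and lists were chosen with earlier results of these data known. Alternatives changed the pseudocount, the filter, the scaling and the transcript length. The procedure was also run on simulated read counts. These were drawn with the same transcript lengths and without PCR copies, so they could not test the choice of length or the copying of reads. Python 3.11.15, numpy 2.4.6, pandas 2.3.3 and scipy 1.17.1 were used.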

Additional observations from a re-analysis of the deposited data

How the results depend on the processing

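No paired analysis was possible because each age has 1 library, so the ages share a single replicate number and no replicate can be left out. As deposited, the members held 0 genes at least 2-fold higher and 1 lower at P28. A pseudocount of 0.1 gave 1 higher (Igfbp6) and 2 lower (Igfbp2 and Igfbp4), and equal totals gave 3 lower. A pseudocount of 5, the filters and the other scalings left the member counts at 0 and 1. Of the pathway genes, 2 were higher and 2 lower as deposited. A pseudocount of 0.1 gave 6 lower, a pseudocount of 5 gave 1 higher and 0 lower, a filter of 5 RPKM gave 1 higher and 1 lower, equal totals gave 0 higher and 6 lower, and equal totals outside the 10 most abundant genes gave 1 higher. Of all genes, 114 were higher and 189 lower as deposited (37.6% of those apart were higher). Pseudocounts of 0.1 and 5 gave 226 higher with 530 lower and 39 higher with 34 lower, the filter of 5 RPKM gave 73 and 93, equal totals gave 65 and 443 (12.8% higher), and a median set to 0 gave 144 and 151 (48.8% higher). The pseudocount acts by construction on low genes, and equal totals lower every ratio. The median log2 ratio of the members minus that of all genes was -0.42 as deposited, -0.23 with a pseudocount of 5 and -0.57 among genes of 5 RPKM or more. For the rest of the IGF system this difference turned from -0.44 to 0.06 among genes of 5 RPKM or more, where fewer genes remain. For the PI3K list it turned from -0.06 to 0.09 there, and for the adaptors and negative regulators from 0.04 to -0.09. With other transcript lengths the intervals of 2 members, Igf1 (0.0324 to 2.5) and Igfbp3 (0.983 to 9.32), came to hold 1, both with the shortest transcript. At these depths genes of under about 30 reads, such as Igfbp3, have intervals several-fold wide.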
